A study of Mus musculus with 9 samples.

Results

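The genes described here mark the B lineage from the pro-B cell to the plasma cell, with the immunoglobulin genes themselves left out. They were taken by symbol from the deposited table of gene counts, and 35 genes were found among the 56748 genes of the table. The table holds bulk RNA-seq of hematopoietic stem cells (HSCs) sorted from the bone marrow of female C57BL/6 mice, with 3 groups of 3 libraries. Young HSCs (yHSCs) came from mice of 6 to 10 weeks. Pre-aged HSCs (paHSCs) came from mice of 14 to 16 months and were split by surface P-selectin, the adhesion molecule encoded by Selp, into Selp_low and Selp_high paHSCs. The labels name no treatment or altered gene for any of the 9 libraries, and all were from cells gated as lineage-negative, Sca1+, c-Kit+, CD48- and CD150+, and antibodies to B220, a B cell surface antigen, are among the reagents listed for the study.

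B cells arise in the marrow from lymphoid progenitors. Ebf1 and Pax5 commit them to the lineage, the surrogate light chain built from Vpreb and Igll1 proteins lets a pro-B cell test its first heavy chain, and mature B cells then carry an antigen receptor that signals through Cd79a and Cd79b. Plasma cells form when Irf4, Prdm1 and Xbp1 take over from Pax5 and Bach2 and turn the cell to antibody secretion. HSCs stand upstream of all these stages and are sorted for the lack of mature lineage antigens.

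Promoters of 6 of these genes are shown because the genes parted in level between the libraries. Cd79a, Cd22, Blnk and Vpreb3 reached their highest values in Selp_low libraries 1 and 2, whereas Igll1 and Vpreb1, which code for the pre-B cell partners of the heavy chain, did not. Each sequence runs 5′ to 3′ on the strand of the gene, from 250 bases before to 50 bases after the start in RefSeq (GRCm38.p6). Capitals mark 4 motifs on either strand, namely the octamer ATGCAAAT bound by Pou2f2, a core CCCNNGGGA bound by Ebf1, the E-box CAGGTG bound by E proteins, and GAGGAA bound by Spi1 and Spib.
Cd79a, chr7:24897247-24897546, plus strand: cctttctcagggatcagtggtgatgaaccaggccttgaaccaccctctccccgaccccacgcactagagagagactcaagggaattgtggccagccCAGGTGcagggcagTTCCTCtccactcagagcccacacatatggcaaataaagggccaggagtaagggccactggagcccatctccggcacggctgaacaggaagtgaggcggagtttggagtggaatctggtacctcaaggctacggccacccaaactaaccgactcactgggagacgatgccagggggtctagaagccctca
Cd22, chr7:30878979-30879278, minus strand: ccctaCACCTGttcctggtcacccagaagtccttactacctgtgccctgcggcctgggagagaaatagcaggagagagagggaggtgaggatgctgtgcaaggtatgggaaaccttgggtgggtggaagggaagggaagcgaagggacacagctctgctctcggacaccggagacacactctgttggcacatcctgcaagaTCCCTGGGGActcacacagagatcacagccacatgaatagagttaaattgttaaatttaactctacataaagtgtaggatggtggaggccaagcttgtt
Blnk, chr19:40994172-40994471, minus strand: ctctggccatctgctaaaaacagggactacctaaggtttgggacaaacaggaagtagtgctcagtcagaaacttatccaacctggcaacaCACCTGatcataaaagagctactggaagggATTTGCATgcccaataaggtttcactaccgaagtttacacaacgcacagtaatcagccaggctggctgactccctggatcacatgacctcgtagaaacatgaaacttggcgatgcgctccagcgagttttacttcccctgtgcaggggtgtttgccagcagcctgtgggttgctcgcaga
Vpreb3, chr10:75948050-75948349, plus strand: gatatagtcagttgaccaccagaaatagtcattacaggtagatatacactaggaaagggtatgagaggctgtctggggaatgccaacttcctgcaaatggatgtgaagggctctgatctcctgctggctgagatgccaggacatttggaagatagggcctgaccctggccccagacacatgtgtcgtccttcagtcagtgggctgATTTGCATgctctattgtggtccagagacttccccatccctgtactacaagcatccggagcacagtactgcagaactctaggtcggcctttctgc
Igll1, chr16:16863936-16864235, minus strand: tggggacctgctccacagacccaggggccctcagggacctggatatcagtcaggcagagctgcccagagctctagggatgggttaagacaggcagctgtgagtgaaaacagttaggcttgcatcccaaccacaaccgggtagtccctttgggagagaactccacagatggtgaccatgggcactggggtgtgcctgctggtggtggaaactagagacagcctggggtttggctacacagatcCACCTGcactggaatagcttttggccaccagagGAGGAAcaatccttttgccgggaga
Vpreb1, chr16:16869206-16869505, minus strand: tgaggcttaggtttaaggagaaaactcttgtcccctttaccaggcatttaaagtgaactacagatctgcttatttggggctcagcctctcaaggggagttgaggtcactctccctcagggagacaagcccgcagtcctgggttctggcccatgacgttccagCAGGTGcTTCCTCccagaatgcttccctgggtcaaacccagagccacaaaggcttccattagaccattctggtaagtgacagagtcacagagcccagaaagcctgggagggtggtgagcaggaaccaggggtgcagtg
The Cd79a window held an E-box that began 154 bases before the start and a Spi1 core that began 140 bases before it. Cd22 held Ebf1 cores on both strands that overlapped by all but 1 base and began 49 and 48 bases before the start. The octamer stood 130 bases before the start of Blnk and 45 bases before that of Vpreb3. Igll1 and Vpreb1 each held an E-box and a Spi1 core and neither the octamer nor the Ebf1 core.

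A promoter window was found for 28 of the 35 genes, with 32 windows between them. Cd79b, Blk, Ms4a1, Ly6d, Cd24a, Cd52 and Mzb1 had none in the table. The octamer was present in 6.25% of these windows and in 1.74% of all 32851 mouse windows, and its carriers were Blnk and Vpreb3. The Ebf1 core was found in 6.25% of the windows and in 6.56% of all windows, at Cd22 and Sdc1. The E-box was found in 50% of the windows, those of 15 genes, and in 20.2% of all windows. GAGGAA was found in 46.9% of the windows, also those of 15 genes, and in 28.3% of all windows. These are matches of letters only, and the genes with and without high values in Selp_low libraries 1 and 2 both carried the E-box and GAGGAA.

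The total counts ranged from 24866975 to 35375310 a library, so a count of 3 corresponded to between 0.0695 and 0.198 CPM, the usual depth-scaled count, with the library sizes adjusted by trimmed mean of M values (TMM). Selp was at 264 to 652 CPM in Selp_high, at 29.3 to 109 CPM in Selp_low and at 20.5 to 30.0 CPM in yHSCs, with Selp_low library 2 inside the range of the yHSCs. All 12 HSC markers of a list that includes Procr, Slamf1 and Hlf were detected in every group, with summed levels of 1426 to 3092 CPM in yHSCs, 1255 to 1855 CPM in Selp_low and 2899 to 3870 CPM in Selp_high. In Selp_low library 2 Ly6a alone, which lymphocytes also express, was at 879 CPM, its highest value, while Procr at 15.7, Hlf at 22.8 and Mecom at 13.0 CPM had their lowest values of the 9 libraries. Selp_low library 2 stood apart, because immunoglobulin genes and Jchain took 46.3% of its counts against 0.0693% to 4.28% in the other 8 libraries. Its TMM factor was 0.545, which raises every other CPM value of that library relative to an unscaled share. In the sums below, the CPM of the immunoglobulin genes are scaled in the same way.

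The B lineage and plasma cell genes were measured in nearly every library. Of the 35, 33 had more than 3 counts in all 9 libraries, and 2 of the 315 pairs of gene and library had no count, namely Pax5 in Selp_high library 3 and Tnfrsf17 in yHSC library 2. A count of 0 allows up to 0.0859 CPM in the first of these libraries and up to 0.0695 CPM in the second. All 35 passed the filter on low counts in each of the 3 comparisons. In the deposited annotation 15 of the 35 genes overlap a gene on the opposite strand, among them Cd37 with Tead2, Cd72 with Tesk1, Cd52 with Crybg2 and Vpreb1 with Top3b. The strand setting of the counting is not given in the sources used here, so reads from such partners cannot be told apart.

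The 35 genes together summed to 1329, 1912 and 1805 CPM in yHSC libraries 1, 2 and 3. In Selp_low libraries 1, 2 and 3 the sum was 10793, 16746 and 1923 CPM. In Selp_high libraries 1, 2 and 3 it was 1339, 1969 and 1467 CPM. Selp_low libraries 1 and 2 were therefore above all others, and Selp_low library 3 lay within the range of the Selp_high libraries. For 26 of the 35 genes Selp_low libraries 1 and 2 were the highest 2 of the 9, a pattern held by 7.33% of the 22594 genes that passed the filter over all libraries. For 19 of the 35 genes Selp_low library 3 was the lowest of the 9, against 7.86% of all genes, and both held together for 16 genes, against 1.10% of all genes. The B lineage genes were thus at opposite ends in libraries of the same group. In bulk samples, fewer cells of a type and less RNA per cell cannot be told apart.

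**Figure D1:**
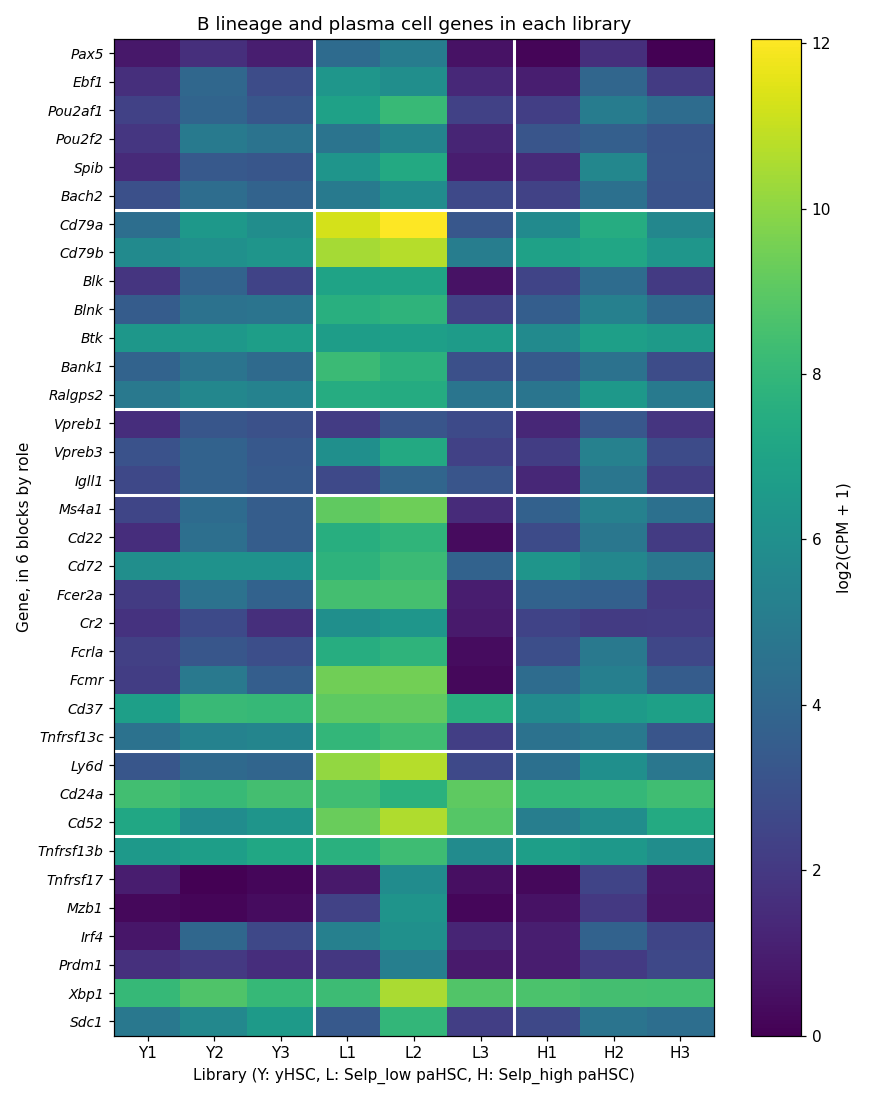
Level of the 35 B lineage and plasma cell genes (rows, in 6 blocks by role) in the 9 libraries (columns, 3 a group, parted by white lines), as log2(CPM + 1). The columns of Selp_low libraries 1 and 2 are brighter than all others for 26 genes, and the column of Selp_low library 3 is the darkest for 19.

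Other cells' genes moved with the same libraries. The sum over 12 T cell markers, among them Cd3e, Trac and Trbc2, was 717 and 1423 CPM in Selp_low libraries 1 and 2 and between 13.3 and 76.0 CPM in the other 7, with the lowest value in Selp_low library 3. All 12 T cell markers were above 3 counts in at least 1 library of each group. Neutrophil markers went the other way, with 5150 and 551 CPM in Selp_low libraries 1 and 2 and 216128 CPM in Selp_low library 3, against 1701 to 66064 CPM in the other 6. The 8 markers of monocytes and macrophages were split in Selp_low library 3. Lyz2, which neutrophils also express, was at 25577 CPM and Ly6c2 at 1988 CPM there, each the highest of the 9 libraries. C1qa was at 2.02 CPM and Cd68 at 11.2 CPM there, the lowest of the 9, and C1qb, Adgre1 and Ccr2 were also lowest there. Csf1r was lowest in Selp_low library 1. Immunoglobulin genes and Jchain summed to 566 to 1615 CPM in yHSCs, to 3707, 35929 and 14001 CPM in Selp_high libraries 1, 2 and 3, and to 28294, 850875 and 1493 CPM in Selp_low libraries 1, 2 and 3. Markers of plasmacytoid dendritic cells, which share some transcription factors with B cells, summed to between 191 and 306 CPM in every library. Tcf4, Bst2 and Lair1 made up most of that sum. Siglech was at 1.05 to 8.52 CPM, and Ccr9 at 0.824 to 30.1 CPM with its highest value in Selp_low library 1. The part of these other cells' genes in the values below was not tested.

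**Figure D2:**
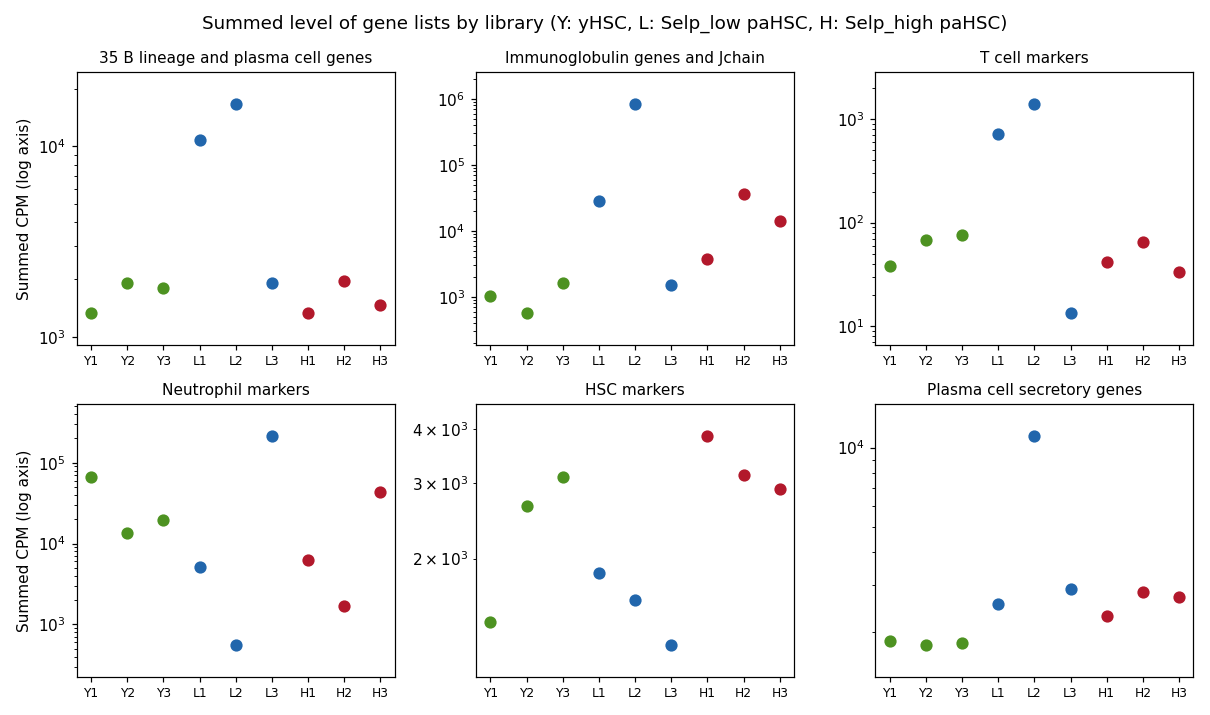
Summed CPM (log axis) of the 35 B lineage and plasma cell genes and of 5 other gene lists in each of the 9 libraries. Selp_low libraries 1 and 2 stand above the rest for the 35 genes and for the T cell markers, Selp_low library 3 stands highest for the neutrophil markers, and the plasma cell secretory genes reach 11093 CPM in Selp_low library 2 against at most 2898 CPM elsewhere.

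Among the genes of the B cell receptor complex and its proximal signaling, Cd79a was at 1712 and 2912 CPM per kilobase in Selp_low libraries 1 and 2, the highest level per length of the 35 genes there, and at 5.99 to 122 CPM per kilobase in the other 7. It encodes the alpha signaling chain of the receptor (ENSMUSG00000003379, chr7:24596806-24601622 in mm39, plus strand). Cd79a stood at 19.4, 85.1 and 59.7 CPM in yHSC libraries 1 to 3, at 2494, 4243 and 8.73 CPM in Selp_low libraries 1 to 3, and at 53.7, 178 and 46.4 CPM in Selp_high libraries 1 to 3. The lowest of the 9 values was thus in the same group as the highest, and every pair of groups overlapped. Cd79b, the beta chain, was at 53.4, 64.6 and 77.8 CPM in yHSCs, at 1372, 1656 and 34.0 CPM in Selp_low, and at 119, 137 and 79.4 CPM in Selp_high. Here every Selp_high library was above every yHSC library, and Selp_low library 3 was again the lowest of all.

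Blk, a Src family kinase of B cells, was at 126 and 129 CPM in Selp_low libraries 1 and 2 and at 0.525 CPM in Selp_low library 3. In the 6 other libraries it lay between 2.64 and 18.0 CPM. The adaptor Blnk, which links the receptor to Btk, reached 195 and 230 CPM in Selp_low libraries 1 and 2 against 4.16 CPM in library 3. Bank1, a scaffold of B cell receptor signaling, and Ralgps2, a Ral exchange factor enriched in B cells, were highest in Selp_low library 1 at 296 and 173 CPM. The kinase Btk was the exception in this block. It was at 80.9, 83.8 and 107 CPM in yHSCs, at 103, 112 and 97.1 CPM in Selp_low and at 52.7, 109 and 92.5 CPM in Selp_high, so that its highest library exceeded its median by 1.16-fold, whereas that of Cd79a did so by 71.0-fold. Btk is also used by myeloid cells and platelets.

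The transcription factors of B cell identity were also highest in Selp_low library 1 or 2, and their lowest library differed between factors. Pax5 was at 0.711, 2.09 and 0.984 CPM in yHSCs, at 17.6, 31.9 and 0.525 CPM in Selp_low and at 0.103, 2.07 and 0 CPM in Selp_high. Ebf1 was at 2.10, 15.4 and 6.04 CPM in yHSCs, at 80.0, 60.1 and 1.61 CPM in Selp_low and at 1.01, 14.7 and 3.32 CPM in Selp_high. Selp_low library 3 was below all yHSC libraries for both factors, and Selp_high library 1 was lower still. Pou2af1, the coactivator that binds octamer factors, was at 3.99, 13.6 and 8.48 CPM in yHSCs, at 118, 278 and 4.05 CPM in Selp_low and at 3.75, 32.6 and 18.2 CPM in Selp_high. Spib, an ETS factor of B cells and plasmacytoid dendritic cells, reached 76.6 and 160 CPM in Selp_low libraries 1 and 2 and 46.4 CPM in Selp_high library 2, with 0.974 to 9.16 CPM in the others. Bach2, which holds back plasma cell formation, spanned 4.24 to 56.9 CPM over all libraries. Pou2f2, the octamer factor of B cells, spanned 1.39 to 42.7 CPM and was the only 1 of the 6 factors whose second highest library was a yHSC library, library 2 at 29.3 CPM.

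The surface receptors and coreceptors of mature B cells were also highest in Selp_low libraries 1 and 2. Ms4a1, which encodes CD20, was at 4.81, 17.6 and 10.9 CPM in yHSCs, at 558, 666 and 1.76 CPM in Selp_low and at 12.3, 37.9 and 20.6 CPM in Selp_high. Fcmr, the IgM Fc receptor, was at 3.55, 28.1 and 11.3 CPM in yHSCs, at 684, 723 and 0.187 CPM in Selp_low and at 17.9, 36.2 and 10.4 CPM in Selp_high. The value in Selp_low library 3 rested on 5 counts. The inhibitory receptor Cd22 was at 188 and 236 CPM in Selp_low libraries 1 and 2 and at 0.262 CPM, or 7 counts, in library 3. Fcer2a, the low affinity IgE receptor CD23 of follicular B cells, reached 350 and 359 CPM in Selp_low libraries 1 and 2 and was at 0.974 CPM in library 3, while the other 6 libraries lay between 3.01 and 22.5 CPM. Cr2, the complement receptor CD21, was at 62.6 and 78.6 CPM in Selp_low libraries 1 and 2 and at no more than 5.47 CPM elsewhere. Fcrla, an Fc receptor-like protein kept inside B cells, Cd72, an inhibitory coreceptor, and Tnfrsf13c, the receptor for the survival factor BAFF, had the same 2 highest libraries and the same lowest library. Cd37, a tetraspanin of lymphocytes, differed from these. It was at 110, 285 and 270 CPM in yHSCs, at 525, 559 and 191 CPM in Selp_low and at 56.1, 92.3 and 113 CPM in Selp_high, so that the 3 Selp_high libraries lay below all 3 Selp_low libraries.

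Of the GPI-anchored proteins, Ly6d, which marks lymphoid progenitors bound for the B lineage and stays on B cells, was at 8.22, 16.2 and 14.2 CPM in yHSCs, at 1084, 1654 and 5.36 CPM in Selp_low and at 20.8, 63.9 and 26.4 CPM in Selp_high. The Selp_high libraries were all above the yHSC libraries, and the Selp_low libraries lay on both sides of both. Cd52, a small surface glycoprotein of lymphocytes and other leukocytes, was at 142, 56.6 and 78.0 CPM in yHSCs, at 623, 1582 and 467 CPM in Selp_low and at 34.9, 58.3 and 165 CPM in Selp_high. It was the only 1 of the 35 genes for which all 3 Selp_low libraries were above all 6 others. Cd24a, the heat stable antigen that is present on developing B cells and on many other blood cells, was highest in Selp_low library 3 at 537 CPM and lowest in Selp_low library 2 at 209 CPM.

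Vpreb3 did not move with the surrogate light chain genes Igll1 and Vpreb1. Vpreb3, which is expressed on into immature B cells, was at 7.11, 12.7 and 8.91 CPM in yHSCs, at 62.6, 160 and 3.97 CPM in Selp_low and at 3.54, 38.9 and 5.73 CPM in Selp_high. Igll1, the lambda5 chain of the pro-B and pre-B stage, was at 5.21, 12.6 and 9.60 CPM in yHSCs, at 5.41, 14.4 and 7.94 CPM in Selp_low and at 1.52, 25.8 and 3.55 CPM in Selp_high. Vpreb1, its partner at the same stage, was at 2.03, 8.46 and 6.94 CPM in yHSCs, at 3.44, 7.91 and 5.54 CPM in Selp_low and at 1.55, 8.60 and 2.61 CPM in Selp_high. Both pre-B genes were highest in Selp_high library 2, and Selp_low library 1, which held 2494 CPM of Cd79a, was no higher for them than yHSC libraries 2 and 3. Reads of Vpreb1 may be shared with its near-identical copy Vpreb2, so its level is uncertain.

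**Figure D3:**
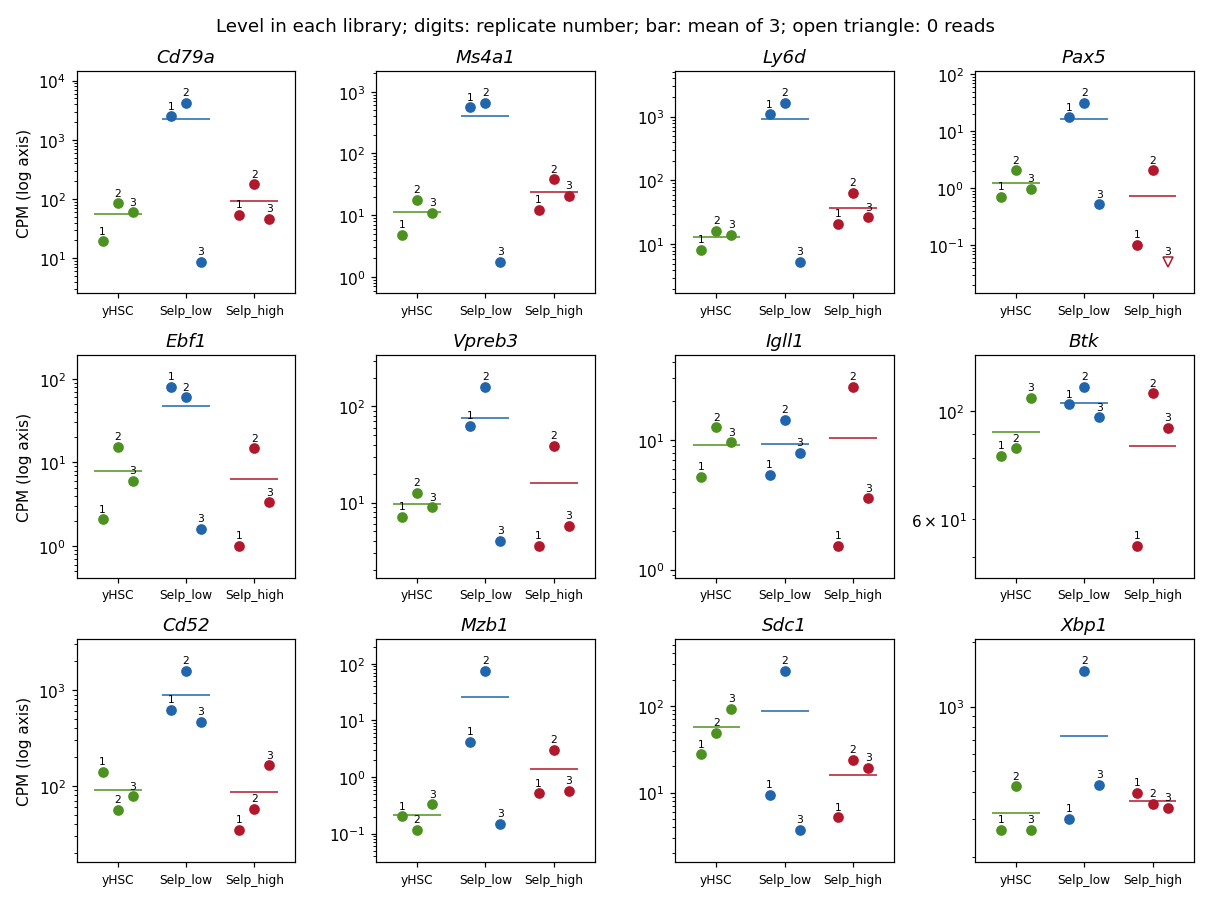
CPM (log axis) of 12 of the genes in each library, with 3 points a group, replicate numbers beside them, a bar at the mean and an open triangle for a library with no count. Cd79a, Ms4a1, Ly6d, Pax5, Ebf1 and Vpreb3 are high in Selp_low libraries 1 and 2 and low in library 3, Igll1 and Btk are not, Cd52 is high in all 3 Selp_low libraries, and Mzb1, Sdc1 and Xbp1 are highest in Selp_low library 2.

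The plasma cell factors and receptors followed another pattern, in which Selp_low library 2 stood above library 1. Mzb1, a chaperone of antibody assembly, was at 0.203, 0.116 and 0.328 CPM in yHSCs, at 4.23, 74.4 and 0.150 CPM in Selp_low and at 0.517, 3.00 and 0.573 CPM in Selp_high. Tnfrsf17, the receptor BCMA of plasma cells, was at 0.948, 0 and 0.164 CPM in yHSCs, at 0.787, 56.9 and 0.412 CPM in Selp_low and at 0.207, 4.53 and 0.659 CPM in Selp_high. Selp_low library 2 was 17.6-fold above library 1 for Mzb1 and 72.3-fold for Tnfrsf17, whereas it was 1.70-fold above it for Cd79a and 1.19-fold for Ms4a1. Prdm1, the factor Blimp-1 that drives plasma cell formation, was at 35.6 CPM in Selp_low library 2 and between 0.824 and 5.21 CPM in the other 8 libraries. Sdc1, the plasma cell marker CD138, was at 27.6, 49.0 and 92.8 CPM in yHSCs, at 9.41, 251 and 3.71 CPM in Selp_low and at 5.19, 23.9 and 19.3 CPM in Selp_high. Xbp1, the factor of the secretory and unfolded protein response, was at 1463 CPM in Selp_low library 2 and between 267 and 433 CPM in the others. These genes reached their highest value in the library in which immunoglobulin genes and Jchain took 46.3% of the counts.

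Irf4 and Tnfrsf13b, which B cells use before the plasma cell stage, were high in both Selp_low libraries 1 and 2. Irf4 was at 37.0 and 64.4 CPM in Selp_low libraries 1 and 2, at 1.35 CPM in library 3 and between 0.643 and 15.2 CPM in the other 6. Tnfrsf13b, the receptor TACI, was at 198 and 314 CPM in Selp_low libraries 1 and 2, at 55.6 CPM in library 3 and between 58.2 and 145 CPM in the other 6. Across the 9 libraries, the rank correlation (Spearman) with Cd79a was 1.00 for Cd22, 0.98 for each of Spib, Blk, Fcrla and Fcmr, 0.35 for Tnfrsf17, 0.22 for Xbp1 and -0.62 for Cd24a. That of Mzb1 with Jchain, the chain that joins IgM and IgA polymers, was 0.93. The points share libraries and scaling factors, and these values only describe the order of the libraries.

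Within yHSCs the genes with the highest levels per length were those that other cells also use. Cd24a was at 109 to 134 CPM per kilobase and Xbp1 at 82.1 to 131 CPM per kilobase, with ranges that overlapped. Cd52 at 47.7 to 119, Cd37 at 31.4 to 80.9, Cd79b at 37.3 to 54.4, Tnfrsf13b at 31.1 to 51.2, Cd79a at 13.3 to 58.4 and Btk at 25.7 to 33.9 CPM per kilobase came next, and neighbours in this order did not separate beyond the spread of the 3 libraries. Pax5, at 0.0803 to 0.236 CPM per kilobase, was near the bottom of this order. Among the yHSC libraries, library 2 was the highest for 24 of the 35 genes against 19.7% of all genes, and library 1 was the lowest for 29 against 39.9% of all genes. Among the Selp_high libraries, library 2 was the highest for 26 of the 35 genes against 40.3% of all genes.

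The comparison of Selp_high with Selp_low paHSCs asked which genes part with surface P-selectin at the same age. The fold changes of the 35 genes were mostly below zero, with 34 lower and 1, Igll1, higher in Selp_high, and their median log2 fold change was -2.89 against -0.11 over all genes tested. The study's thresholds of an adjusted p of 0.05 and an absolute log2 fold change of 1 were used to call a gene. By edgeR's quasi-likelihood test with Benjamini-Hochberg adjustment, 0 of the 35 genes and 0 of 20370 genes tested were called (0%). An unadjusted p under 0.05 by this test was found for 10 of the 35 genes and for 2555 of the 20370. By DESeq2, 10 of the 33 genes with an adjusted p were called, all lower in Selp_high, against 1.66% of all genes called in that direction. They were Cd79a, Cd79b, Bank1, Ms4a1, Fcer2a, Cr2, Cd37, Tnfrsf13c, Ly6d and Cd52, and thus genes of the receptor complex and of the mature B cell surface and no plasma cell gene. Tnfrsf17 and Sdc1 were given no adjusted p by DESeq2.

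Fold changes were large and their errors were large as well. Cd79a stood at -4.61 ± 1.73 (edgeR log2 fold change, SE) in Selp_high over Selp_low, with an adjusted p of 0.366 by edgeR and of 0.0101 by DESeq2. Ly6d stood at -4.64 ± 1.62 with adjusted p of 0.350 and 0.00638 by edgeR and DESeq2. Cd52 and Cd37, whose libraries did not overlap between the groups, had smaller errors, at -3.38 ± 0.76 and -2.30 ± 0.50. Their adjusted p were 0.338 each by edgeR, and 0.000819 and 0.00707 by DESeq2. Cd37 and Cd52 were the only 2 of the 35 genes with all Selp_high libraries below all Selp_low libraries, against 11.2% of all genes, and 0 of the 35 were the other way round, against 9.32% of all genes, so separation of the groups was not more common among these genes. At the other end, Btk at -0.31 ± 0.31, Cd24a at -0.37 ± 0.38, Vpreb1 at -0.41 ± 0.72 and Igll1 at 0.15 ± 1.00 were called by neither tool.

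The number of genes called moved with single libraries and with the tool. Without Selp_low library 3, edgeR called 6 genes lower in Selp_high, namely Cd79b, Ms4a1, Fcer2a, Cr2, Fcmr and Ly6d, against 0.218% of all genes, and DESeq2 called 24, against 3.55% of all genes. Leaving out any other single library gave 0 by edgeR. DESeq2 called 17 genes lower without Selp_high library 2, against 8.21% of all genes, and 1 without Selp_low library 2, against 0.166%. It called 2 without each of Selp_low library 1, Selp_high library 1 and Selp_high library 3, against 0.881%, 0.976% and 1.39% of all genes. The median log2 fold change of the 35 genes was -1.78 without Selp_low library 2, with 30 lower and 5 higher, and -3.61 without Selp_high library 2. No label states that libraries with the same replicate number share mice or a sort. Between these 2 groups such libraries deviated together weakly (correlations of 0.18 to 0.30), which does not establish a pairing. With the number as a block, edgeR called 0 of the 35 genes against 0.0442% of all genes, and DESeq2 called Pax5, Cd37 and Cd52 against 5.49% of all genes.

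**Figure D4:**
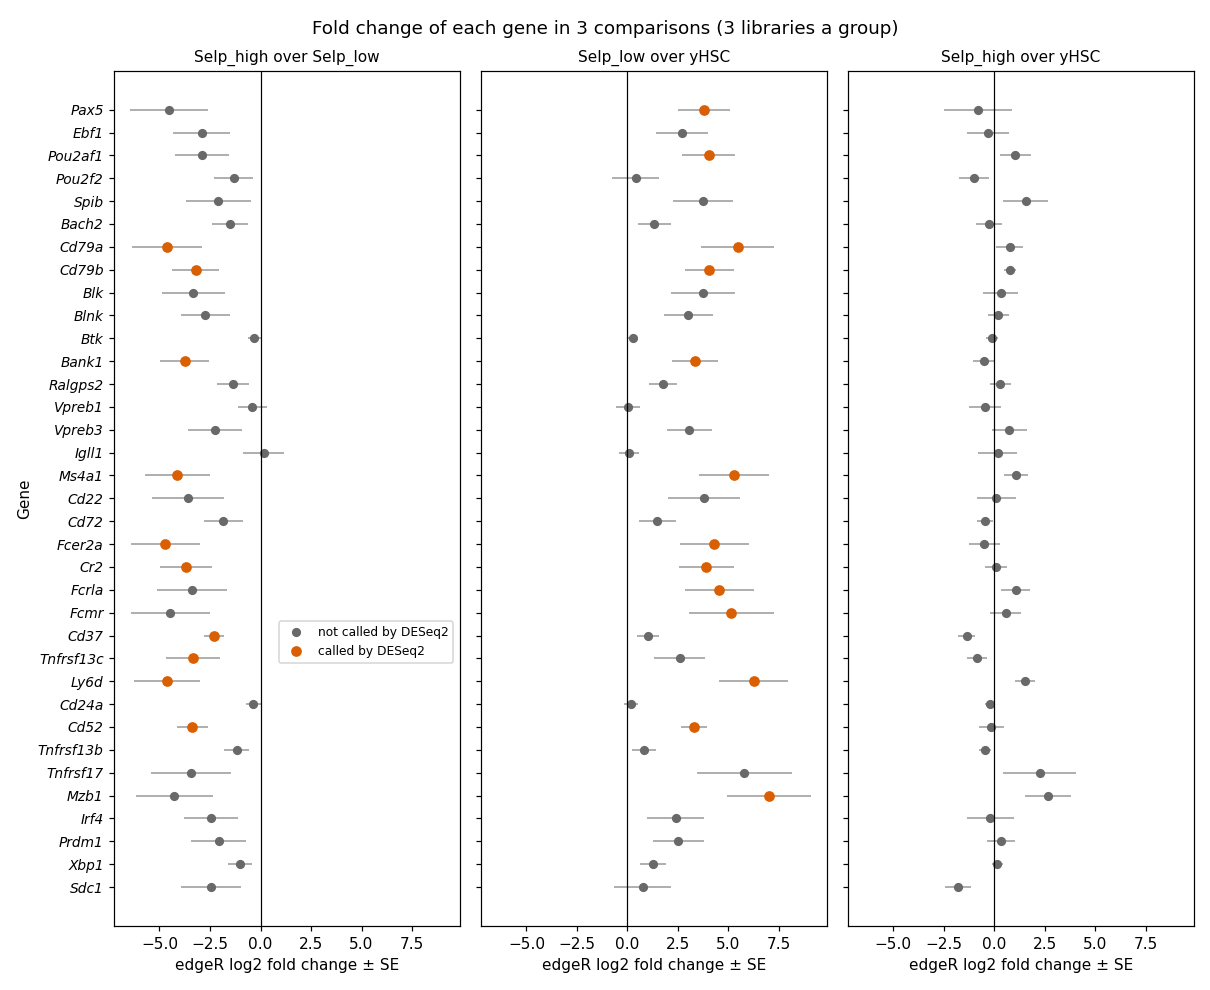
log2 fold change with its SE (edgeR, 3 libraries a group) of the 35 genes in 3 comparisons, with the genes called by DESeq2 in orange. 34 genes lie below 0 in Selp_high over Selp_low, all 35 lie above 0 in Selp_low over yHSC, and the genes lie on both sides of 0 in Selp_high over yHSC.

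Selp_low paHSCs were compared with yHSCs, for which the labels name no P-selectin gate, so age and the gate cannot be told apart. The Selp_low libraries also serve in the comparison above, so the 2 sets of values are not independent. All 35 genes had a fold change above zero, with a median log2 value of 3.06 against 0.08 over all genes tested. edgeR called 0 of the 35 genes and 0 of 20437 genes tested (0%). Its unadjusted p was under 0.05 for 18 of the 35 genes and for 2306 of the 20437. DESeq2 called 13 of the 34 genes with an adjusted p higher in Selp_low, against 1.79% of all genes. These were Pax5 and Pou2af1 of the transcription factors, Cd79a, Cd79b and Bank1 of the receptor complex, Ms4a1, Fcer2a, Cr2, Fcrla and Fcmr of the surface receptors, Ly6d and Cd52, and Mzb1 of the plasma cell genes.

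The largest fold changes over yHSCs were those of Mzb1, at 6.99 ± 2.08 (log2, SE), and Ly6d, at 6.24 ± 1.72. Mzb1 had an adjusted p of 0.337 by edgeR and of 0.000185 by DESeq2, while Ly6d had 0.332 and 0.000105. For both, Selp_low library 3 lay within or below the yHSC range, and without Selp_low library 2 the log2 fold change of Mzb1 was 3.32. Cd52 was the exception, at 3.32 ± 0.64, with adjusted p of 0.332 by edgeR and 0.000322 by DESeq2, and with means of 891 ± 604 CPM in Selp_low and 92.1 ± 44.3 CPM in yHSCs (SD, n = 3). It alone of the 35 genes had all Selp_low libraries above all yHSC libraries, against 9.34% of all genes, and 0 of the 35 were wholly lower, against 6.22% of all genes. Vpreb1 at 0.02 ± 0.60, Igll1 at 0.08 ± 0.50, Cd24a at 0.19 ± 0.36 and Btk at 0.26 ± 0.21 were near zero.

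Without Selp_low library 3, edgeR called 10 genes higher in Selp_low than in yHSCs, namely Cd79a, Cd79b, Blnk, Bank1, Ms4a1, Cd72, Cr2, Fcrla, Tnfrsf13c and Ly6d, against 0.497% of all genes. DESeq2 then called 26, against 4.69% of all genes. With any other library left out edgeR called 0. DESeq2 called 5 higher without Selp_low library 1, against 2.39% of all genes, and 2 higher and 1 lower without Selp_low library 2, where 0.461% of all genes were called higher. It called 7, 8 and 3 higher without yHSC libraries 1, 2 and 3, against 7.85%, 0.840% and 0.746% of all genes. Library 3 was the lowest of the Selp_low libraries for 31 of the 35 genes, against 36.5% of all genes. It lay below every yHSC library for 24 of the 35, against 21.0% of all genes.

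**Figure D5:**
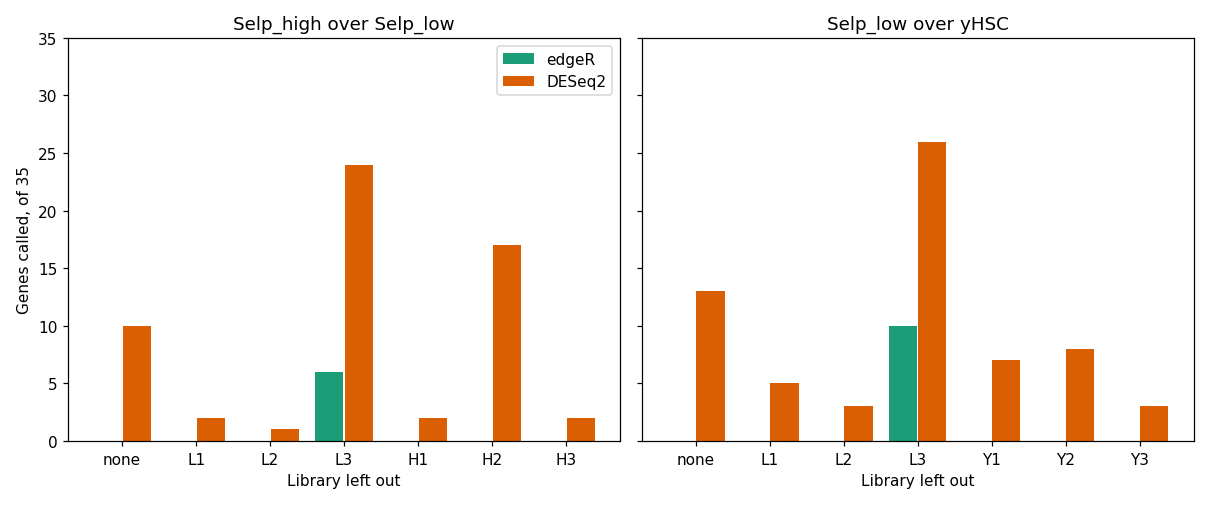
Number of the 35 genes called by edgeR and by DESeq2 with all libraries and after removal of 1 library at a time, for Selp_high over Selp_low (left) and Selp_low over yHSC (right). Bars are highest without Selp_low library 3, at 24 and 26 genes by DESeq2 and at 6 and 10 by edgeR, which calls 0 in every other case shown.

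Selp_high paHSCs and yHSCs differed less in these genes. This comparison also joins age with the P-selectin gate, and it shares the yHSC libraries with the comparison of Selp_low paHSCs. Of the 35 genes, 19 were higher and 16 lower in Selp_high, and the median log2 fold change was 0.09 against -0.03 over all genes tested. edgeR called 0 of the 35 genes, against 0.165% of all genes tested. Its unadjusted p was under 0.05 for 4 of the 35 genes and for 1519 of the 20017 tested. DESeq2 called 0 of the 35 as well, against 3.26% of all genes. In this comparison Cd79b, Ly6d and Mzb1 had all Selp_high libraries above all yHSC libraries, a share like that of all genes (7.71%), and Sdc1 had them all below, against 5% of all genes.

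Cd79b was at 112 ± 29.6 CPM in Selp_high and at 65.3 ± 12.2 CPM in yHSCs (SD, n = 3), with a log2 fold change of 0.76 ± 0.28 (SE). Ly6d was at 37.0 ± 23.4 CPM against 12.9 ± 4.13 CPM, with a log2 fold change of 1.51 ± 0.51. Sdc1 lay on the other side, at 16.1 ± 9.76 CPM in Selp_high against 56.5 ± 33.3 CPM in yHSCs and a log2 fold change of -1.81 ± 0.63. Cd37 stood at 87.1 ± 28.8 CPM against 222 ± 96.8 CPM, a log2 fold change of -1.37 ± 0.42, with Selp_high library 3 (113 CPM) just above yHSC library 1 (110 CPM). For these 4 genes the adjusted p by edgeR lay between 0.400 and 0.568, and that by DESeq2 between 0.0640 and 0.327.

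Other genes of the same pathways were read beside the 35. Over all genes, DESeq2 called 1.66% lower in Selp_high than in Selp_low. In Selp_low over yHSCs it called 1.79% higher and 0.835% lower, and in Selp_high over yHSCs 2.05% higher and 1.2% lower. Of 24 other mature B and germinal center genes, edgeR tested 22 between Selp_high and Selp_low and called none. The median log2 fold change of those 22 was -2.96. DESeq2 called 11 of the 24 lower, among them Ccr6, which edgeR did not test. Cd74, the invariant chain of antigen presentation, was at 13479, 24608 and 137 CPM in Selp_low libraries 1 to 3 and between 171 and 1473 CPM in the other 6, so that libraries 1 and 2 were again the highest and library 3 the lowest of the 9. Cd40 and Cxcr5, the receptors for T cell help and for entry into follicles, were called lower by DESeq2, at -4.49 and -4.37 on the log2 scale. In Selp_low over yHSCs, DESeq2 called 10 of the 24 higher, and edgeR called none of the 22 it tested. The edgeR log2 fold change of Cd74 was 5.06 there. In Selp_high over yHSCs DESeq2 called 1 higher, Cd38, and 2 lower, Cd86 and Cd69, of which edgeR called Cd69 lower.

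Of 24 other genes of B cell receptor signaling, most of which HSCs and myeloid cells use as well, DESeq2 called Malt1 and Prkcb lower in Selp_high than in Selp_low. In Selp_low over yHSCs it called Prkcb, Fcgr2b and Rasgrp3 higher. The summed level of this list was 3820 to 5694 CPM in yHSCs, 4524 to 5746 CPM in Selp_low and 3893 to 4727 CPM in Selp_high, and so did not part the libraries as the 35 genes did. Rasgrp3, the Ras exchange factor of B cells, had its highest values in Selp_low libraries 1 and 2, at 87.2 and 170 CPM, against 2.88 CPM in library 3.

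Of 18 other genes of the early B lineage program, DESeq2 called none between Selp_high and Selp_low. It called 1 higher, Ikzf3, and 3 lower, Dntt, Sox4 and Flt3, in Selp_low than in yHSCs. Flt3, the cytokine receptor of lymphoid-primed progenitors, was at 207, 330 and 563 CPM in yHSCs, at 42.4, 5.40 and 7.68 CPM in Selp_low and at 4.29, 7.78 and 6.73 CPM in Selp_high. Dntt, the enzyme that adds bases at V(D)J joints, was at 23.9, 77.0 and 83.7 CPM in yHSCs, at 9.37, 2.96 and 6.11 CPM in Selp_low and at 2.89, 14.4 and 2.55 CPM in Selp_high. In Selp_high over yHSCs, Flt3 was called lower by both tools, at -5.87 on the log2 scale with an adjusted p of 0.0159 by edgeR, and DESeq2 also called Dntt, Sox4 and Rhoh lower. The list as a whole was split in Selp_low over yHSCs, with 9 genes higher and 9 lower. Ikzf3, the lymphoid factor Aiolos, was at 56.9 and 98.0 CPM in Selp_low libraries 1 and 2 and at 0.974 to 12.7 CPM elsewhere.

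All 20 other plasma cell secretory genes were tested in each comparison. Their summed level was 1774 to 1840 CPM in yHSCs, 2302 to 2840 CPM in Selp_high, and 2540, 11093 and 2898 CPM in Selp_low libraries 1, 2 and 3. Selp_low library 2 was thus alone at the top, as for Mzb1, Tnfrsf17, Sdc1, Prdm1 and Xbp1. Between Selp_high and Selp_low no gene of this list was called by either tool. In Selp_low over yHSCs all 20 had a fold change above zero and DESeq2 called 6 higher, with Slamf7 at 5.37 and Eaf2 at 5.08 on its log2 scale, and in Selp_high over yHSCs DESeq2 called Derl3, Creld2 and Fkbp11 higher, while edgeR called none in either comparison.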

How the data were processed

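RNA-seq libraries of 9 HSC samples were made by the authors with a SMARTer ultra-low-input cDNA kit and transposase-based library construction. Per the labels and the study's methods, the authors trimmed reads with fastp, aligned them with HISAT2 (2.2.1) to mm39 and deposited raw counts per gene from featureCounts (2.0.6). Their notes also name CASAVA (1.8) and DESeq2 (1.42.0). How multimapping reads were treated, which annotation release served and whether strand was used in counting are not given in the sources seen here. Groups were taken from the sample titles, with 3 biological replicates each. All per-sample columns were assigned.

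Counts were fitted for 2 groups at a time with edgeR (4.0.16, R 4.3.3), using filterByExpr, TMM factors and the legacy quasi-likelihood test (glmQLFit, glmQLFTest), with Benjamini-Hochberg adjustment over all genes tested. A call needed an adjusted p of at most 0.05 and a log2 fold change of 1 or more in size. The SE given with edgeR fold changes was derived as the absolute log2 fold change over the square root of the F statistic. It is not an output of edgeR. DESeq2 (1.42.0) was the alternative, on genes with at least 1 count. It gave no adjusted p where its own filters removed a gene, and those were kept out of its counts. Both tools were run on simulated data with the same dispersion for every gene. A spread within a group as wide as that in Selp_low was not simulated, so that run does not bear on it. CPM used TMM factors over all 9 libraries, and level per length is CPM divided by the deposited gene length in kilobases. Percentages of all genes called are over the genes tested by the same tool in the same comparison. A count of 3 was taken as the floor, which covers counting error only.

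The list of 35 genes, the pathway lists and the cell type marker lists were chosen with earlier results of these data known. All 35 genes are named, and values in every library are given for those with the highest level per length or the largest fold change in their role group. From the other lists counts or summed levels are given and some genes are named, not always those with the largest fold change. Where 5 or fewer genes of a pathway list were called, all are named. The markers of NK cells summed to 48.5 to 88.8 CPM in yHSCs, 102 to 631 CPM in Selp_low and 116 to 150 CPM in Selp_high. Those of erythroid cells summed to 240 to 2326, 365 to 3062 and 687 to 1127 CPM in the same groups, and those of megakaryocytes to 117 to 182, 153 to 2090 and 1251 to 6916 CPM. The NK cell sum of 631 CPM was that of Selp_low library 3, where Nkg7 alone was at 619 CPM. In Selp_high, Nkg7 and Klrb1c made up most of the NK cell sum. Deviations from the group means correlated at 0.18, 0.28 and 0.30 between Selp_high and Selp_low libraries of the same replicate number. Between either group and the yHSCs they correlated at -0.42 to 0.09. No label states a pairing, and these values do not establish it. Pairs of libraries within a group correlated at 0.848 to 0.954 (Pearson, log2 CPM), so none was taken as a repeat of another. P-values measure the spread between these libraries.

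RLE factors in place of TMM, removal of the immunoglobulin genes, no filter, 1 fit of all 9 libraries, the replicate block and each library left out were tried as alternatives. Leaving libraries out under DESeq2 was added after seeing the data.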

Additional observations from a re-analysis of the deposited data

How the results depend on the processing

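The number of the 35 genes called depended on the tool and on single libraries more than on scaling. RLE factors, removal of the immunoglobulin genes and 1 fit of all 9 libraries gave 0 called genes in each comparison, as TMM factors did. With no filter on low counts edgeR called 2 (Cd37 and Cd52) between Selp_high and Selp_low, against 0.443% of all genes. It called 1 (Sdc1) between Selp_high and yHSCs, against 1.14%, and 9 between Selp_low and yHSCs, against 0.836%. DESeq2 called 10, 0 and 13, against 2.46%, 3.26% and 2.63% of all genes called in either direction. The cause was not tested. With each library left out, edgeR called 0 to 6 between Selp_high and Selp_low and 0 to 10 between Selp_low and yHSCs, with 6 and 10 without Selp_low library 3, and 0 between Selp_high and yHSCs. With 1 library removed, DESeq2 called 24 (Selp_low library 3), 17 (Selp_high library 2) and 1 or 2 (any other) in Selp_high over Selp_low. It called 26 (Selp_low library 3), 3, 5, 7 or 8 in Selp_low over yHSC. The shares of all genes for these comparisons are given above. In Selp_high over yHSC it called 3 without yHSC library 1, against 4.71% of all genes. Without yHSC library 2 or 3 it called 0, against 1.74% and 1.89%. It called 1 without each of Selp_high libraries 1, 2 and 3, against 3.44%, 3.27% and 4.36%.

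With the replicate number as a block, edgeR called 0 of the 35 genes in each comparison and DESeq2 called 3 in each. For DESeq2 that stood against 4.15% of all genes in Selp_high over yHSC and 2.51% in Selp_low over yHSC. The labels state no pairing by number. Under that block the log2 fold change of Igll1 in Selp_high over Selp_low turned to -0.73 by edgeR and -0.74 by DESeq2, and that of Sdc1 in Selp_low over yHSC turned to -1.36 and -1.43. Igll1 in Selp_low over yHSC was at -0.0047 with the block in DESeq2.

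The median log2 fold change of the 35 genes in Selp_high over Selp_low was -1.78 without Selp_low library 2 and -3.61 without Selp_high library 2, against -2.89 with all libraries. In all 3 comparisons it moved by less than 2.04, the SD of the libraries' median levels within groups, under every alternative run. That SD is itself widened by Selp_low libraries 1, 2 and 3, with median log2 CPM of 7.44, 7.73 and 2.01. A shift below it therefore does not show that the median was stable. Direction was kept under all 13 alternatives by 29 genes in Selp_high over Selp_low, by 29 in Selp_low over yHSC and by 16 in Selp_high over yHSC. In Selp_low over yHSC, Vpreb1 was at -0.0321 without immunoglobulin genes, -0.11 without a filter, -0.018 by DESeq2 and -0.048 in 1 fit of all libraries, and Igll1 was at -0.046 without a filter. With each library left out, the log2 fold change in Selp_high over Selp_low ranged from -1.87 to 0.67 for Igll1, from -0.60 to 0.042 for Cd24a, from -5.48 to 1.59 for Tnfrsf17, from -2.66 to 0.75 for Prdm1, from -1.39 to 0.017 for Xbp1 and from -3.03 to 1.29 for Sdc1, and the value above zero of the last 4 was that without Selp_low library 2. In Selp_low over yHSC it ranged from -0.54 to 0.90 for Pou2f2, from -0.45 to 0.37 for Vpreb1, from -0.45 to 0.36 for Igll1, from -0.26 to 0.44 for Cd24a, from -0.39 to 3.00 for Prdm1 and from -3.11 to 1.29 for Sdc1. Of the 35 genes, 33 had over 3 counts in every library.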
